A study of Mus musculus with 9 samples.

Results

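The 40 genes described here encode the proteins that carry glucose into the cell, break it down to pyruvate and lactate, pass pyruvate to the mitochondrion, and store and release glycogen. They were chosen by symbol from a list of pathway members, and 38 of the 40 were found among the 16698 genes of the deposited table and all 38 were tested. Aldoc and Gapdh are not analysed here. The tissue was left ventricle from outbred ICR/CD1 mice, collected at postnatal day 14 in every group, and its messenger RNA was sequenced. In transverse aortic constriction (TAC) the aortic arch is narrowed surgically, so that the left ventricle ejects against a raised pressure. The 3 groups of 3 libraries were day-1 TAC, operated on at postnatal day 1, day-7 TAC, operated on at postnatal day 7, and sham. For sham no day of surgery is labelled. Whether the libraries of a group came from separate animals is not labelled either, and a p-value here reflects only how much these libraries vary. Time under load and age at surgery differed together between the TAC groups and cannot be told apart.

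Glycolysis converts glucose to pyruvate in the cytosol, and lactate dehydrogenase interconverts pyruvate and lactate, which monocarboxylate transporters carry across the membrane. Pyruvate that enters the mitochondrion is oxidised by the pyruvate dehydrogenase complex, which the pyruvate dehydrogenase kinases inhibit by phosphorylation. Glycogen is built from UDP-glucose and broken down by phosphorylase, which phosphorylase kinase activates. The fetal heart uses glucose and lactate as main fuels, and the heart shifts towards fatty acid oxidation in the weeks after birth. Many of these steps are encoded by several isozyme genes with different tissue preferences, such as Pgam2 and Eno3 in striated muscle beside the widely expressed Pgam1 and Eno1.

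Reads recovered from the deposited values numbered 18535202 to 26521005 per library. The 12 cardiomyocyte markers were all in the table, with a summed linear level of 101000 to 130000 with day-1 TAC, 118000 to 128000 with day-7 TAC, against 139000 to 144000 in sham. Summed markers of other cell types differed between the groups as well, though a sum follows its most abundant genes. Summed levels of 10 fibroblast markers were 5260 to 7340 with day-1 TAC, 4920 to 5340 with day-7 TAC, against 3700 to 5130 in sham. Summed levels of 10 macrophage markers were 162 to 231 with day-1 TAC, 117 to 154 with day-7 TAC, against 143 to 187 in sham. Neutrophil markers, all 8 in the table, summed to 7.29 to 32.6 with day-1 TAC, 31.3 to 70.3 with day-7 TAC, against 2.13 to 4.39 in sham. Smooth muscle markers, 6 in all, summed to 3410 to 3580 with day-1 TAC, 3220 to 3520 with day-7 TAC, against 2970 to 3000 in sham. Des was the highest of these 6, at mean log2 levels of 11.38, 11.26 and 11.01. Of the 6, 2 were called higher and 1 lower with day-1 TAC, and 1 and 1 with day-7 TAC. Smtn fell by 0.57 with day-1 TAC, so the sum does not show a rise of the list. Atrial markers, 7 in all and with Nppa among them, summed to 2950 to 4710 with day-1 TAC, 3960 to 6160 with day-7 TAC, against 657 to 855 in sham. Nppa had mean log2 levels of 11.67, 12.17 and 8.88 in these groups. Of the 6 atrial markers tested, 1 was called higher and 1 lower in each TAC group against sham. With day-1 TAC these were Nppa and Tbx5 (2.80 and -1.41), so the sum does not show a rise of the list. Endothelial markers, 10 in all, summed to 1570 to 1730 with day-1 TAC, 1660 to 1720 with day-7 TAC, against 1730 to 1840 in sham. Sums of erythroid and adipocyte markers in each TAC group overlapped sham. The part of these shifts in the results below was not tested, and in bulk tissue fewer cells of a type and less RNA per cell cannot be told apart. Skeletal muscle shares several isozymes with the heart, but 10 of its markers in the table other than Ckm, which the heart also expresses, summed to only 6.38 to 9.49 with day-1 TAC, 9.14 to 9.94 with day-7 TAC, against 9.68 to 9.99 in sham. Day-1 TAC replicate 3 had a level of Xist of 9.09 on the log2 scale against at most 0.93 in the other 8 libraries. Its level of the Y-linked Ddx3y was -0.10, against 7.37 to 7.67 in the others. By these 2 transcripts it was a female library and the others male, so sex was not balanced between the groups. The part of sex in the day-1 TAC differences was not tested. Of the 5 X-linked genes described here 2 lay, in this library, within the range of the other day-1 TAC libraries and the rest just below it.

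With day-1 TAC, 3 of 8 genes of lower glycolysis (Pgam1, Pgam2 and Pkm), 2 of 4 lactate genes (Ldha and Slc16a3) and 2 of 4 genes of glycogen synthesis (Gbe1 and Ugp2) rose, while 3 of 6 genes of the pyruvate dehydrogenase step (Pdk1, Pdk2 and Pdha1) and 2 of 4 of glycogen breakdown (Phkg1 and Pygb) fell. Against sham, 11 genes rose and 8 fell of 38, where 34.8% of the 13712 genes tested were called (14.3% higher and 20.5% lower) at a limma adjusted p under 0.05. The largest fall was in Phkg1, which was 5.7-fold higher in sham. The largest log2 difference upward was 2.14 in Slc16a3, a gene of few reads in sham, and was 1.35 with a pseudocount of 1. The median log2 difference of the 38 genes was 0.11, against -0.04 over all genes tested. The groups did not overlap for 26 of the 38, and for 48.0% of all genes. The split of calls depended on the scaling. As deposited, 41.1% of calls over all genes were higher, against 49.3% to 60.0% under other scalings, and among the 38 genes these gave 14 higher and 6 lower (trimmed mean), 16 and 5 (upper quartile and quantile) and 15 and 5 (voom on recovered reads).

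With day-7 TAC, 3 of 4 genes of glycogen breakdown (Phkg1, Pygm and Pygb) fell and the other, Phka1, rose. Of 6 genes of the pyruvate dehydrogenase step 3 fell (Pdk2, Pdha1 and Pdhb) and Pdk3 rose, and of 8 genes of lower glycolysis 3 rose (Pgk1, Pgam1 and Eno1). Against sham, 11 genes rose and 9 fell of 38, where 28.9% of all genes tested were called (13.8% higher and 15.1% lower). Pgam1 rose most, 2.31-fold, and Phkg1 fell most. The median log2 difference was -0.04, against -0.01 over all genes, and the groups did not overlap for 24 of 38 (46.7% of all genes). Of all calls 47.7% were higher as deposited and 59.0% with voom, which gave 11 higher and 8 lower among the 38. Both TAC comparisons share the 3 sham libraries.

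Set against each other, the TAC groups differed in genes of most steps, with the widest gaps in Slc16a3, Pdk1, Pfkl and Phka1. Day-1 TAC was higher than day-7 TAC in 11 genes and lower in 5 of 38, where 16.7% of all genes tested were called (6.42% higher and 10.3% lower). The median log2 difference was 0.12, against -0.03 over all genes. Of all calls 38.5% were higher as deposited, against 48.0% to 56.8% under other scalings, which among the 38 genes gave 13 higher and 5 lower (trimmed mean), 13 and 3 (upper quartile), 11 and 4 (quantile) and 13 and 4 (voom). Limma's F test over the 3 groups called 29 of 38, against 44.4% of all genes. The genes called in no comparison were Hk1, Gpi1, Pfkfb3, Pfkfb4, Tpi1, Dlat, Gys1 and Gyg.

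**Figure D1:**
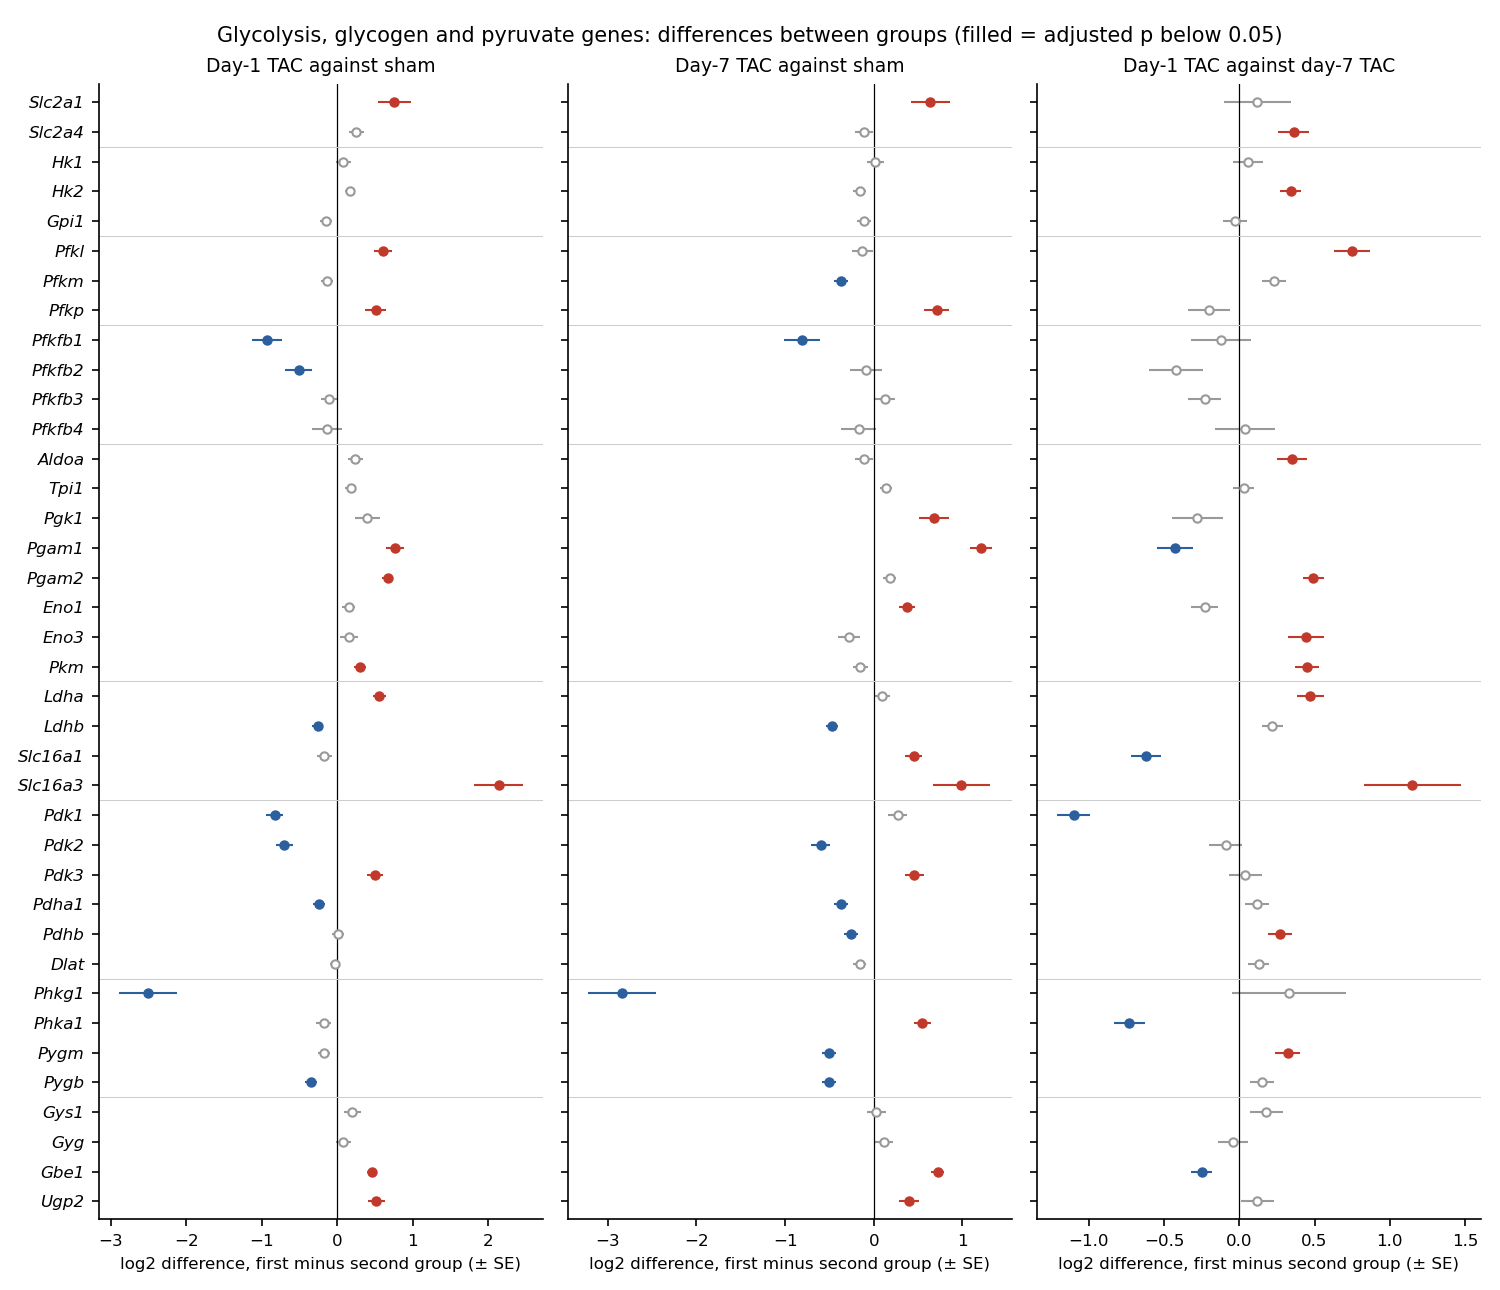
Log2 differences (x axis, first minus second group, ± SE) for the 38 genes in rows ordered by step, in 3 comparisons with their own x scales. Filled points passed an adjusted p of 0.05 (red higher, blue lower). Slc16a3 stands far right at 2.14 with day-1 TAC against sham, Phkg1 far left at -2.51 and -2.84 with the TAC groups, and Pdk1 at -1.10 between them.

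Glucose transport differed between its transporter genes. Slc2a1, which encodes the widely expressed transporter GLUT1, had log2 levels of 3.57, 2.97 and 3.37 with day-1 TAC, 3.48, 3.05 and 3.02 with day-7 TAC and 2.81, 2.71 and 2.13 in sham. All 6 TAC libraries lay above the sham libraries. Slc2a1 rose by 0.76 (SE 0.22, limma adjusted p = 0.0216) with day-1 TAC and by 0.64 (SE 0.22, adjusted p = 0.0498) with day-7 TAC. Both calls were fragile. The day-1 call was lost without sham replicate 3 or day-1 TAC replicate 1 or 3 (0.55 to 0.72, adjusted p 0.0590 to 0.0753), and the day-7 call without sham replicate 2 or 3, any day-7 TAC library or day-1 TAC replicate 3 (0.43 to 0.72, adjusted p 0.0640 to 0.161). Slc2a4, which encodes the insulin-responsive transporter GLUT4, was the more abundant by far, at 65.2 ± 6.40, 51.0 ± 5.59 and 54.7 ± 3.52 linear units per kb of exon with day-1 TAC, day-7 TAC and sham (SD, n = 3), where Slc2a1 stood at 2.86 ± 0.582, 2.62 ± 0.486 and 1.70 ± 0.398. Slc2a4 passed the test only between the TAC groups, at a log2 difference of 0.36 (SE 0.10, adjusted p = 0.0337), and lost that call without day-7 TAC replicate 1 or 3 or day-1 TAC replicate 2 or 3 (0.27 to 0.38, adjusted p 0.0589 to 0.113).

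The first steps of glucose breakdown changed little. Hexokinase genes Hk1 and Hk2, whose products trap glucose in the cell by phosphorylating it, and Gpi1, the isomerase gene, were not called against sham in either TAC group, with log2 differences of -0.16 to 0.17. Hk2 was higher in day-1 TAC than in day-7 TAC by 0.34 (SE 0.07, limma adjusted p = 0.0127), a call lost without day-7 TAC replicate 2 (0.30, adjusted p = 0.0509).

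Phosphofructokinase, the committed step, is a tetramer of muscle (Pfkm), liver (Pfkl) and platelet (Pfkp) type subunits. Pfkl had log2 levels of 6.93, 6.53 and 7.03 with day-1 TAC, 6.06, 6.22 and 5.97 with day-7 TAC and 6.18, 6.15 and 6.32 in sham. The day-1 TAC libraries stood above all others, and day-7 TAC and sham overlapped. Pfkl rose by 0.61 (SE 0.12, limma adjusted p = 0.00403) with day-1 TAC against sham and was higher than with day-7 TAC by 0.75 (SE 0.12, adjusted p = 0.00456). Pfkp stood at 8.77, 8.16 and 8.31 with day-1 TAC, 8.56, 8.67 and 8.62 with day-7 TAC and 8.05, 7.70 and 7.96 in sham. Every TAC library was above sham, and Pfkp rose by 0.51 (SE 0.14, adjusted p = 0.0195) with day-1 TAC and 0.71 (SE 0.14, adjusted p = 0.00504) with day-7 TAC, the first of which was lost without sham replicate 2 (0.41, adjusted p = 0.0780). Pfkm, the most abundant of them per kb of exon at 243 ± 18.3, 206 ± 6.93 and 266 ± 9.40 linear units with day-1 TAC, day-7 TAC and sham, fell with day-7 TAC by 0.37 (SE 0.08, adjusted p = 0.00598) and stood at -0.14 (SE 0.08, adjusted p = 0.192) with day-1 TAC. The log2 ratio of Pfkm to Pfkp within a library was 1.25 ± 0.43 with day-1 TAC, 0.81 ± 0.01 with day-7 TAC and 1.89 ± 0.15 in sham.

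The Pfkfb genes encode the bifunctional enzymes that make and remove the strongest allosteric activator of phosphofructokinase. All 4 were low, at or under 1.74 linear units per kb in each group. Pfkfb1 had log2 levels of 1.03, 1.05 and 0.90 with day-1 TAC, 0.91, 0.95 and 1.49 with day-7 TAC and 1.98, 1.88 and 1.93 in sham, from 36 to 94 reads per library. No TAC library reached the sham range. Pfkfb1 fell by 0.93 (SE 0.20, limma adjusted p = 0.00523) with day-1 TAC and by 0.81 (SE 0.20, adjusted p = 0.0121) with day-7 TAC. Pfkfb2 stood at 1.36, 1.33 and 1.22 with day-1 TAC, 1.55, 1.62 and 2.01 with day-7 TAC and 1.89, 1.63 and 1.95 in sham. It fell with day-1 TAC by 0.51 (SE 0.18, adjusted p = 0.0494), but the call was lost in 13 of 17 alternatives, including the fits without any of the sham or day-1 TAC libraries or without day-7 TAC replicate 1 or 2 (-0.61 to -0.45, adjusted p 0.0556 to 0.132). Pfkfb3 and Pfkfb4 were not called.

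Summed linear levels of the 8 genes of lower glycolysis were 4422 to 4546 with day-1 TAC, 3276 to 3609 with day-7 TAC, against 3456 to 3730 in sham. Day-1 TAC lay above both other groups, which overlapped. Pgam2, the muscle phosphoglycerate mutase and the most abundant of the 38 per kb of exon in sham, had log2 levels of 9.89, 9.92 and 9.84 with day-1 TAC, 9.36, 9.45 and 9.37 with day-7 TAC and 9.29, 9.11 and 9.25 in sham. It rose by 0.67 (SE 0.07, limma adjusted p = 0.000234) with day-1 TAC, stood at 0.18 (SE 0.07, adjusted p = 0.0939) with day-7 TAC, and differed between them by 0.49 (SE 0.07, adjusted p = 0.00320). Pkm, the pyruvate kinase gene of muscle and most other tissues, rose by 0.30 (SE 0.08, adjusted p = 0.0147) with day-1 TAC and was 0.45 (SE 0.08, adjusted p = 0.00554) higher than with day-7 TAC. The first of these calls was lost without sham replicate 2 (0.25, adjusted p = 0.0634).

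Aldoa, an aldolase gene, and Eno3, the muscle enolase gene, were called only between the TAC groups. Day-1 TAC was higher by 0.35 (SE 0.10, limma adjusted p = 0.0349) for Aldoa and by 0.44 (SE 0.12, adjusted p = 0.0318) for Eno3. Without single libraries Aldoa lost its call in 6 fits (0.28 to 0.38, adjusted p 0.0512 to 0.106: sham replicate 2, any day-7 TAC library, day-1 TAC replicate 1 or 3). Eno3 lost it in 4 (0.36 to 0.47, adjusted p 0.0589 to 0.112: day-7 TAC replicate 1 or 3, day-1 TAC replicate 2 or 3). Tpi1, the triose phosphate isomerase gene, differed by 0.18 at most and was not called.

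Pgam1, Pgk1 and Eno1 had higher mean levels with day-7 TAC than with day-1 TAC or in sham. Pgam1 had log2 levels of 3.45, 3.14 and 3.42 with day-1 TAC, 3.84, 3.79 and 3.68 with day-7 TAC and 2.63, 2.49 and 2.57 in sham. The 3 groups did not overlap, with day-7 TAC highest. Pgam1 rose by 0.77 (SE 0.12, limma adjusted p = 0.00108) with day-1 TAC and by 1.21 (SE 0.12, adjusted p = 0.000178) with day-7 TAC, and day-1 TAC was lower than day-7 TAC at -0.43 (SE 0.12, adjusted p = 0.0328). That last call was lost without any day-7 TAC library or day-1 TAC replicate 2 or 3 (-0.48 to -0.33, adjusted p 0.0509 to 0.103). Pgk1, the phosphoglycerate kinase gene, had 3.77, 3.85 and 3.79 with day-1 TAC, 4.02, 4.46 and 3.77 with day-7 TAC and 3.14, 3.48 and 3.58 in sham. Every TAC library was above sham. It rose with day-7 TAC by 0.68 (SE 0.17, adjusted p = 0.0143; 0.55 and 0.0512 without sham replicate 1) and stood at 0.40 (SE 0.17, adjusted p = 0.0905) with day-1 TAC. Eno1 rose with day-7 TAC by 0.38 (SE 0.09, adjusted p = 0.0107).

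Levels of these 3 genes are uncertain, because their transcripts resemble other annotated genes. Of the 50-base windows of the GENCODE transcript, as long as the 50 sequencing cycles, 72.2% of Eno1, 68.0% of Pgk1 and 41.5% of Pgam1 also occur in other annotated genes, which are mostly pseudogenes. Their measured sham levels were 4.43 ± 0.246, 4.74 ± 0.723 and 2.99 ± 0.143 linear units per kb of exon, against 565 ± 54.5 for Eno3 and 709 ± 47.3 for Pgam2, whose transcripts share no window. The share was 30.5% for Pkm, 30.3% for Pdhb, 27.0% for Ldhb, 19.6% for Gpi1, 16.6% for Ldha, 13.5% for Aldoa and 7.51% for Tpi1. How the authors counted reads that map to several places is not given in the sources used here, and the part of shared sequence in these levels was not tested.

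**Figure D2:**
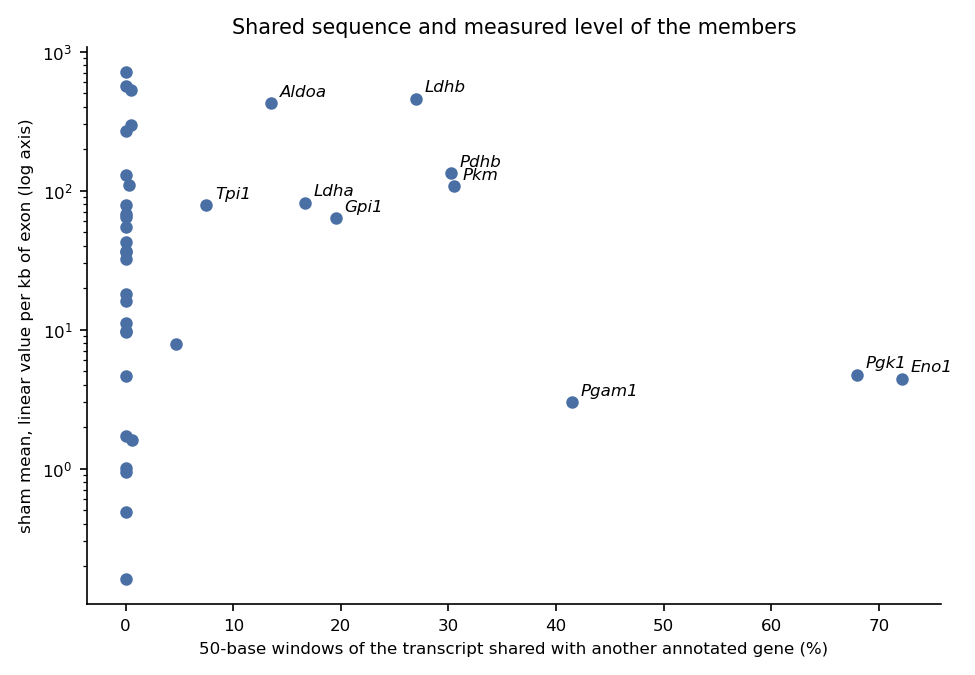
Share of 50-base transcript windows that occur in another annotated gene (x axis, %) against the mean sham level (y axis, linear value per kb of exon, log axis), with 1 point for each of the 38 genes. Pgam1, Pgk1 and Eno1 lie at the lower right, with 41.5% to 72.2% shared and levels under 5.

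Among the lactate genes, Slc16a3, which encodes MCT4, the exporter typical of strongly glycolytic cells, lies on chromosome 11 from 120948480 to 120960868 (GRCm38). Its log2 levels were 2.54, 1.51 and 1.59 with day-1 TAC, 0.88, 0.44 and 0.89 with day-7 TAC and -0.08, -0.68 and -0.02 in sham, from 122, 58 and 58 reads, 44, 26 and 39 reads, and 19, 16 and 19 reads. The groups did not overlap, and day-1 TAC replicate 1 stood highest. Only the TAC libraries brought Slc16a3 past the filter on low values. It rose by 2.14 (SE 0.32, limma adjusted p = 0.000943; 1.35 to 2.32 over the alternatives, lowest with a pseudocount of 1) with day-1 TAC and by 0.99 (SE 0.32, adjusted p = 0.0397) with day-7 TAC, and differed between the TAC groups by 1.15 (SE 0.32, adjusted p = 0.0346). The day-7 call was lost with a pseudocount of 1 and with voom on recovered reads. It was also lost without sham replicate 1 or 2 or any day-7 TAC library (0.78 to 1.14, adjusted p 0.0532 to 0.132). The call between TAC groups was lost without any day-7 TAC library or day-1 TAC replicate 1 (0.82 to 1.22, adjusted p 0.0701 to 0.108).

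Slc16a1, which encodes MCT1, the main lactate carrier of the heart, went another way. Its log2 levels were 8.08, 8.18 and 7.92 with day-1 TAC, 8.87, 8.61 and 8.56 with day-7 TAC and 8.16, 8.34 and 8.20 in sham. Day-7 TAC stood above both other groups. Slc16a1 rose with day-7 TAC by 0.45 (SE 0.10, limma adjusted p = 0.00819), stood at -0.17 (SE 0.10, adjusted p = 0.199) with day-1 TAC, and was lower in day-1 TAC than in day-7 TAC at -0.62 (SE 0.10, adjusted p = 0.00410). The log2 ratio of Slc16a1 to Slc16a3 was 6.18 ± 0.58 with day-1 TAC, 7.95 ± 0.25 with day-7 TAC and 8.49 ± 0.46 in sham.

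Ldha, which encodes the subunit of lactate dehydrogenase prevalent in glycolytic muscle, had log2 levels of 8.84, 8.47 and 8.63 with day-1 TAC, 8.16, 8.16 and 8.19 with day-7 TAC and 8.10, 8.02 and 8.13 in sham. Day-1 TAC stood above all other libraries. Ldha rose by 0.56 (SE 0.09, limma adjusted p = 0.00128) with day-1 TAC, stood at 0.09 (SE 0.09, adjusted p = 0.476) with day-7 TAC and differed between the TAC groups by 0.47 (SE 0.09, adjusted p = 0.00775). Ldhb, the subunit prevalent in heart, fell by 0.26 (SE 0.07, adjusted p = 0.0224) with day-1 TAC and by 0.47 (SE 0.07, adjusted p = 0.00149) with day-7 TAC. The day-1 fall of Ldhb was not called under 3 other scalings, nor without sham replicate 1 or 2 or day-1 TAC replicate 1 (-0.26 to -0.21, adjusted p 0.0626 to 0.0684). The log2 ratio of Ldhb to Ldha was 0.30, 0.78 and 0.70 with day-1 TAC, 0.84, 0.91 and 0.79 with day-7 TAC and 1.47, 1.47 and 1.29 in sham. The 3 groups did not overlap in this ratio, which does not depend on how libraries are scaled (exact permutation test, two-sided p = 0.1 for each pair of groups, the smallest that 3 against 3 allows, and 0.157 adjusted over 11 ratios in 3 comparisons).

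Promoters of the lactate genes are shown because Slc16a3 and Slc16a1, and their partner Ldha, moved differently, and because the core of the element bound by hypoxia-inducible factors, ACGTG, and the E-box CACGTG can be read in them. Each runs 5′ to 3′ along the gene from 250 bases before the start to 50 after it, from RefSeq on GRCm38.p6, and capitals mark ACGTG or CACGTG on either strand, with CACGTG containing ACGTG. They lie at chr11:120948817-120949116 (+) for Slc16a3, chr3:104638414-104638713 (+) for Slc16a1 and chr7:46845554-46845853 (+) for the first listed start of Ldha.
Slc16a3: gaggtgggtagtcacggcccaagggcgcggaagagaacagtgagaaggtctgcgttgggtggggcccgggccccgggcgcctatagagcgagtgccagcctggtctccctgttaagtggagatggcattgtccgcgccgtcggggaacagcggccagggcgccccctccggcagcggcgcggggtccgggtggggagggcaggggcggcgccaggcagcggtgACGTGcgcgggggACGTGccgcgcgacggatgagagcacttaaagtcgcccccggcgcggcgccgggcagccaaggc
Slc16a1: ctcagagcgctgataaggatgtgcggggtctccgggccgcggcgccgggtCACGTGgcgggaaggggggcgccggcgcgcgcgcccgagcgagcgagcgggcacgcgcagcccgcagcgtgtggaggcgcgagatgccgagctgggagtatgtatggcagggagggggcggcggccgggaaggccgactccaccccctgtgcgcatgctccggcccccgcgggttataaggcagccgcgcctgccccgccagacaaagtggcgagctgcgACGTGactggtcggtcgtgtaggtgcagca
Ldha: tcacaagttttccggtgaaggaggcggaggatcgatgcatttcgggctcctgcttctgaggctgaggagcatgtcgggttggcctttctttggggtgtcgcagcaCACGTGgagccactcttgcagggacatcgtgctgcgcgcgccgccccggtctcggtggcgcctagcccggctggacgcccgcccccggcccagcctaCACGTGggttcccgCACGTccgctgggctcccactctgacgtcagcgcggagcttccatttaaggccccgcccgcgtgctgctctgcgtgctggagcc
ACGTG occurs on either strand in 26 of the 59 promoters listed for 39 of the 40 genes (44.1%), and in 19.6% of all 32851 promoters of this length. CACGTG occurs in 7 of the 59 (11.9%), and in 7.15% of all. Neither motif occurs in the listed promoter of Ldhb, the other lactate gene, or at the second listed start of Ldha, which are not printed. A match is a description of the sequence and not of binding.

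**Figure D3:**
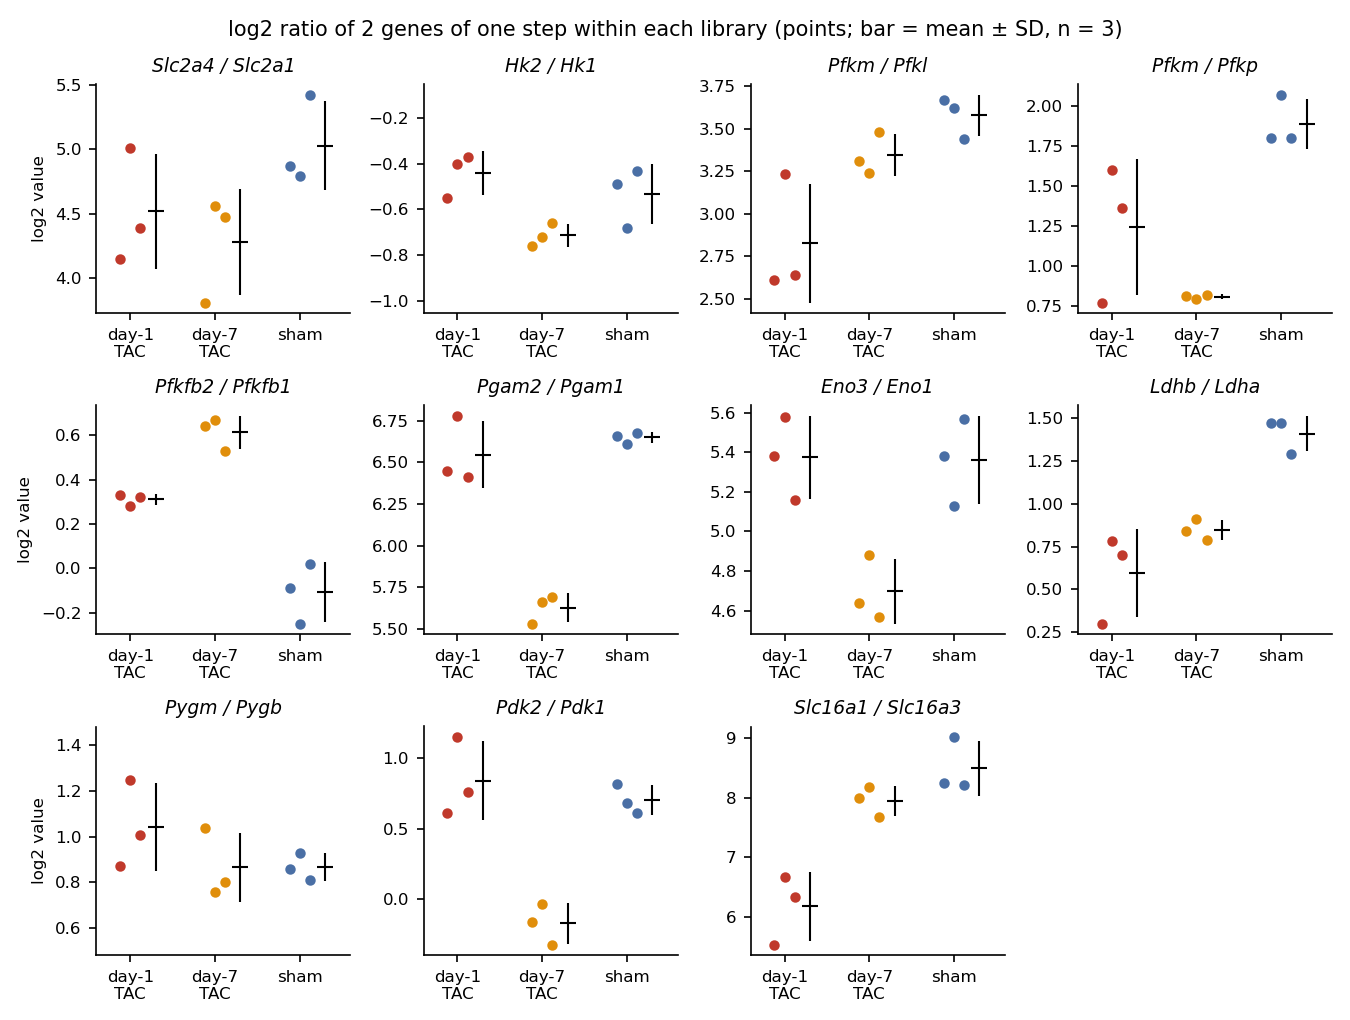
Log2 ratio of paired genes of a step within each library (y axis, points; bar = mean ± SD, n = 3) for day-1 TAC, day-7 TAC and sham from left to right, in 11 panels with their own scales. Ldhb to Ldha averages 0.59 with day-1 TAC, 0.85 with day-7 TAC and 1.41 in sham, whereas Pgam2 to Pgam1, Eno3 to Eno1 and Pdk2 to Pdk1 are low with day-7 TAC alone (5.63, 4.70 and -0.17).

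The pyruvate dehydrogenase kinase genes split by isozyme. Pdk1 lies on chromosome 2 from 71873224 to 71903858 and had log2 levels of 7.20, 6.93 and 7.28 with day-1 TAC, 8.32, 8.07 and 8.31 with day-7 TAC and 8.0, 8.07 and 7.83 in sham. The day-1 TAC libraries stood below all others. Pdk1 fell by 0.83 (SE 0.11, limma adjusted p = 0.000513) with day-1 TAC, stood at 0.27 (SE 0.11, adjusted p = 0.0876) with day-7 TAC, and was lower in day-1 TAC than in day-7 TAC at -1.10 (SE 0.11, adjusted p = 0.000585). Pdk2, more abundant than Pdk1 and Pdk3 per kb of exon in sham, had 7.81, 8.08 and 8.04 with day-1 TAC, 8.16, 8.04 and 8.0 with day-7 TAC and 8.82, 8.75 and 8.44 in sham. It fell in both TAC groups, by 0.70 (SE 0.11, adjusted p = 0.00119) with day-1 TAC and 0.60 (SE 0.11, adjusted p = 0.00301) with day-7 TAC. Pdk3, the low one, had 4.10, 4.08 and 4.0 with day-1 TAC, 3.96, 4.21 and 3.91 with day-7 TAC and 3.58, 3.44 and 3.67 in sham. It rose in both, by 0.50 (SE 0.11, adjusted p = 0.00625) and 0.46 (SE 0.11, adjusted p = 0.0109).

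Subunit genes of the complex itself changed less. Pdha1, which encodes the catalytic alpha subunit, fell by 0.37 (SE 0.08, limma adjusted p = 0.00598) with day-7 TAC and by 0.24 (SE 0.08, adjusted p = 0.0298) with day-1 TAC, where the call was lost under 4 other scalings and without any sham or day-1 TAC library (-0.25 to -0.23, adjusted p 0.0513 to 0.0775). Pdhb, the beta subunit gene, fell with day-7 TAC by 0.26 (SE 0.08, adjusted p = 0.0370) and was higher in day-1 TAC than in day-7 TAC by 0.27 (SE 0.08, adjusted p = 0.0484). These calls were lost in 5 and 8 of the fits that leave out a library: for day-7 TAC without sham replicate 1 or 3, day-7 TAC replicate 1 or 3 or day-1 TAC replicate 2 (-0.29 to -0.19, adjusted p 0.0509 to 0.134), and between TAC groups without each library but sham replicate 3 (0.20 to 0.31, adjusted p 0.0518 to 0.163). Dlat, the acetyltransferase gene, was not called. The 6 genes of this step summed to 2958 to 3013 linear units with day-1 TAC, 2815 to 2981 with day-7 TAC, against 3522 to 3582 in sham. The TAC ranges lay below that of sham. Subunit genes and genes of the inhibiting kinases are both in this sum, so it gives no single direction for the step. Pdha1 was the highest of the 6, and Pdhb and Dlat stood at 0.01 and -0.03 with day-1 TAC against sham.

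**Figure D4:**
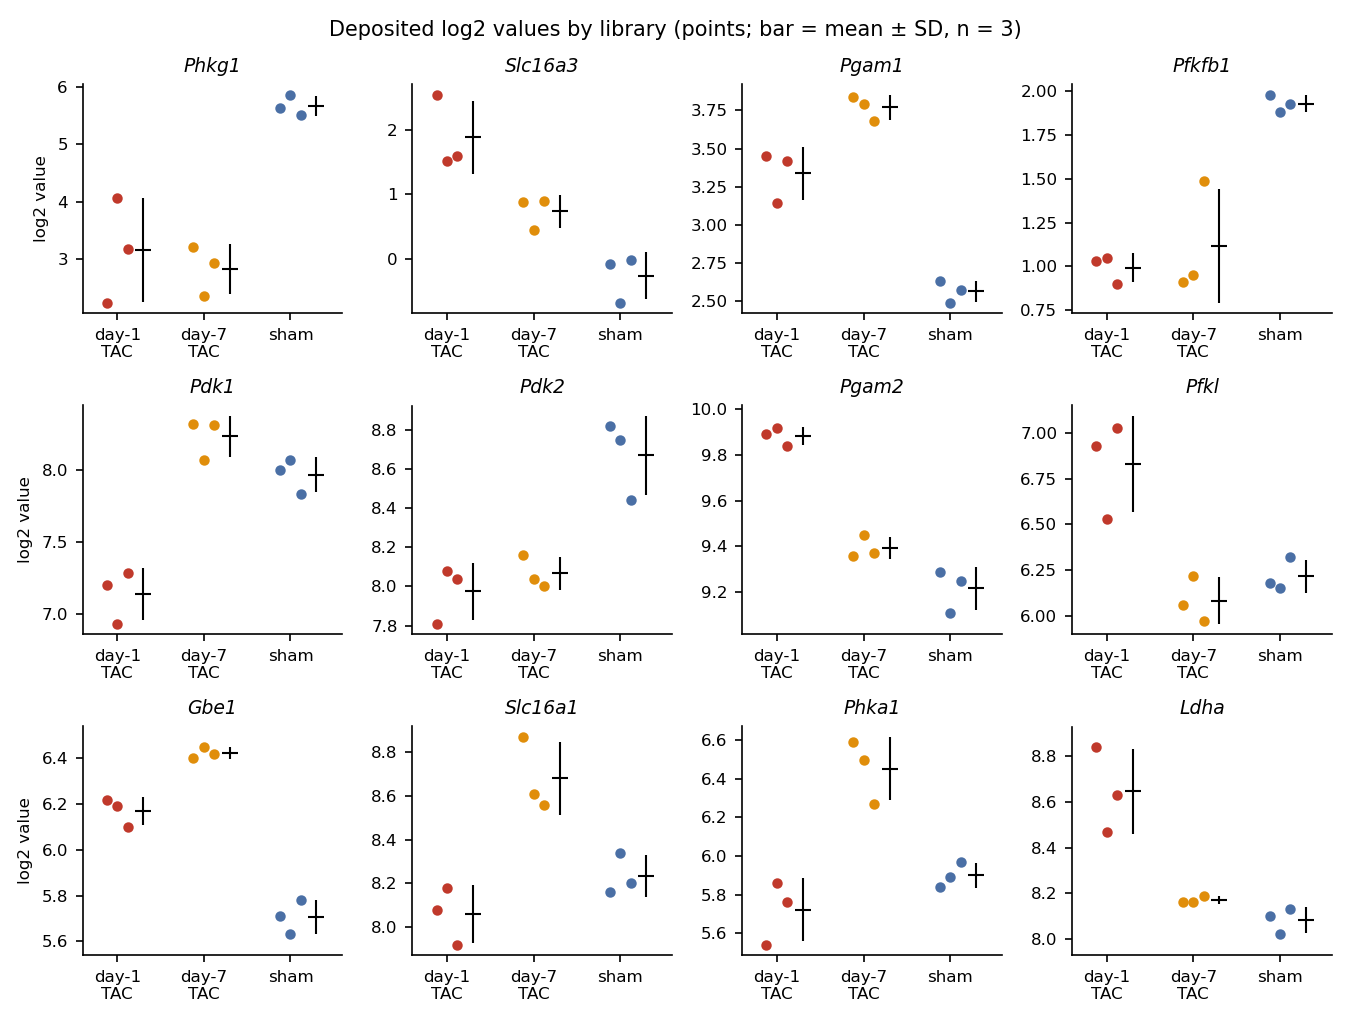
Deposited log2 values by library (y axis, points; bar = mean ± SD, n = 3) of 12 genes, each with its own scale, for day-1 TAC, day-7 TAC and sham from left to right. Phkg1 and Pdk2 are low in both TAC groups, Pdk1 is low with day-1 TAC alone, and Slc16a1 and Phka1 are high with day-7 TAC alone.

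Glycogen breakdown held the largest fall of the 38 genes. Phkg1 encodes the muscle catalytic gamma subunit of phosphorylase kinase and lies on chromosome 5 from 129863421 to 129898549. Its log2 levels were 2.24, 4.06 and 3.17 with day-1 TAC, 3.21, 2.35 and 2.93 with day-7 TAC and 5.63, 5.86 and 5.51 in sham, from 98 to 340 reads in TAC libraries and 878 to 1482 in sham. Each TAC library lay well below sham, and the TAC groups overlapped. Phkg1 fell by 2.51 (SE 0.38, limma adjusted p = 0.000971) with day-1 TAC and by 2.84 (SE 0.38, adjusted p = 0.000647) with day-7 TAC. Exons of other annotated genes, on either strand, hold 19.52% of the exon bases of Pfkfb2, 16.15% of Pdha1, 15.34% of Pkm, 11.48% of Gpi1 and 10.75% of Pfkm. For Phkg1 the share is 9.68%, in exons of Sumf2 on the opposite strand, and the strand setting of the counting is not given in the sources used here. Its RefSeq promoter, shown for the same span and motifs at chr5:129879039-129879338 (−), has neither motif:
Phkg1: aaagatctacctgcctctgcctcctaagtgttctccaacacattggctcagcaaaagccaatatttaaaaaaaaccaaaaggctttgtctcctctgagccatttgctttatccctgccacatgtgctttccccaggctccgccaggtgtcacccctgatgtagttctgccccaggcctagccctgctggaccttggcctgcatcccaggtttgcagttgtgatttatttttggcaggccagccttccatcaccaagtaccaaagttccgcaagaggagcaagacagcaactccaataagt

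Phka1, the X-linked gene of the muscle regulatory alpha subunit of the same kinase, had log2 levels of 5.54, 5.86 and 5.76 with day-1 TAC, 6.59, 6.5 and 6.27 with day-7 TAC and 5.84, 5.89 and 5.97 in sham. Day-7 TAC stood above both other groups. Phka1 rose with day-7 TAC by 0.55 (SE 0.10, limma adjusted p = 0.00344), stood at -0.18 (SE 0.10, adjusted p = 0.192) with day-1 TAC and was lower in day-1 TAC than in day-7 TAC at -0.73 (SE 0.10, adjusted p = 0.00229). Phkg1 and Phka1, subunit genes of a single kinase, thus differed in sign with day-7 TAC, at -2.84 and 0.55. Its other subunit genes moved less than Phkg1. Mean log2 levels with day-1 TAC, day-7 TAC and sham were 4.2, 3.97 and 4.21 for Phkg2. They were 6.18, 6.02 and 6.23 for Phkb, and 4.92, 5.12 and 5.55 for Phka2.

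Pygm, the muscle phosphorylase gene, had 9.60, 9.84 and 9.74 with day-1 TAC, 9.42, 9.36 and 9.43 with day-7 TAC and 9.93, 9.94 and 9.85 in sham. It fell with day-7 TAC by 0.50 (SE 0.08, limma adjusted p = 0.00148), stood at -0.18 (SE 0.08, adjusted p = 0.1) with day-1 TAC, and was higher in day-1 TAC than in day-7 TAC by 0.32 (SE 0.08, adjusted p = 0.0205). The last call was lost without any day-7 TAC library or day-1 TAC replicate 2 or 3 (0.27 to 0.33, adjusted p 0.0559 to 0.0687). Pygb, the brain-type phosphorylase gene, had 8.73, 8.59 and 8.74 with day-1 TAC, 8.38, 8.6 and 8.63 with day-7 TAC and 9.08, 9.0 and 9.04 in sham. It fell in both TAC groups, by 0.35 (SE 0.08, adjusted p = 0.00777) with day-1 TAC and by 0.50 (SE 0.08, adjusted p = 0.00175) with day-7 TAC. The day-1 call of Pygb was lost under quantile normalization (limma adjusted p = 0.0539). Breakdown genes summed to 1252 to 1376 linear units with day-1 TAC, 1126 to 1168 with day-7 TAC, against 1556 to 1625 in sham, without overlap.

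Of the 4 genes of glycogen synthesis, 2 rose in each TAC group and 0 fell, where 14.3% of all genes tested were called higher with day-1 TAC and 13.8% with day-7 TAC. Gbe1, the branching enzyme gene, had log2 levels of 6.22, 6.19 and 6.10 with day-1 TAC, 6.40, 6.45 and 6.42 with day-7 TAC and 5.71, 5.63 and 5.78 in sham. The 3 groups did not overlap. Gbe1 rose by 0.46 (SE 0.07, limma adjusted p = 0.000869) with day-1 TAC and by 0.72 (SE 0.07, adjusted p = 0.000148) with day-7 TAC. Between the TAC groups it differed at -0.25 (SE 0.07, adjusted p = 0.0295), a call lost without any day-7 TAC library or day-1 TAC replicate 2 or 3 (-0.27 to -0.22, adjusted p 0.0607 to 0.0913). Ugp2, whose product makes UDP-glucose, had 8.41, 7.97 and 8.09 with day-1 TAC, 7.93, 8.13 and 8.05 with day-7 TAC and 7.58, 7.67 and 7.67 in sham. All TAC libraries were above sham. It rose by 0.52 (SE 0.11, adjusted p = 0.00443) with day-1 TAC and by 0.40 (SE 0.11, adjusted p = 0.0189) with day-7 TAC, the second lost without sham replicate 1 or day-7 TAC replicate 2 or 3 (0.35 to 0.39, adjusted p 0.0545 to 0.0725). Gys1, the muscle glycogen synthase gene, and Gyg, the gene of the primer protein glycogenin, were not called. Synthesis genes summed to 506 to 616 linear units with day-1 TAC, 515 to 557 with day-7 TAC, against 427 to 430 in sham.

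Other genes of the pathway, 97 of a list of 107 tested, numbered 16 higher and 31 lower with day-1 TAC against sham, 16 and 29 with day-7 TAC, and 14 and 12 between the TAC groups. Over all genes tested, 14.3% were higher and 20.5% lower with day-1 TAC, 13.8% and 15.1% with day-7 TAC, and 6.42% and 10.3% between the TAC groups. The other pathway genes had median log2 differences of -0.06, -0.12 and 0.00 beside -0.04, -0.01 and -0.03 over all genes.

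Fbp2, the muscle fructose bisphosphatase gene that reverses the phosphofructokinase step, had log2 levels of 2.96, 3.60 and 4.28 with day-1 TAC, 4.81, 5.05 and 5.05 with day-7 TAC and 5.95, 6.01 and 5.95 in sham. It fell by 2.36 (SE 0.25, limma adjusted p = 0.000211) with day-1 TAC and by 1.00 (SE 0.25, adjusted p = 0.0144) with day-7 TAC. Pdk4, the kinase gene induced by fasting, stood at 8.63, 8.90 and 9.77 with day-1 TAC, 10.04, 9.57 and 9.64 with day-7 TAC and 10.66, 10.48 and 10.44 in sham. Its fall was 1.42 (SE 0.24, adjusted p = 0.00184) with day-1 TAC and 0.77 (SE 0.24, adjusted p = 0.0365) with day-7 TAC, the second lost without any sham library or day-7 TAC replicate 2 or 3 (-0.81 to -0.68, adjusted p 0.0601 to 0.116). Txnip, whose product restrains glucose uptake, had 8.14, 8.43 and 8.78 with day-1 TAC, 9.48, 9.12 and 9.23 with day-7 TAC and 10.07, 10.29 and 10.13 in sham. It fell by 1.72 (SE 0.15, adjusted p = 9e-05) and 0.89 (SE 0.15, adjusted p = 0.00212). Slc2a12, another glucose transporter gene, fell by 1.11 and 1.03 (SE 0.09, adjusted p = 7.73e-05 and 0.000106).

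Among regulators of glucose use, 3 of 23 rose and 13 fell with day-1 TAC, and 4 rose and 7 fell with day-7 TAC. Hif3a, a hypoxia-inducible factor gene, had log2 levels of 0.61, 1.21 and 2.46 with day-1 TAC, 2.66, 3.42 and 3.09 with day-7 TAC and 5.33, 4.46 and 4.18 in sham, and fell by 3.23 (SE 0.43, limma adjusted p = 0.000580) with day-1 TAC. Its day-7 TAC fall was called too, but lost without sham replicate 1 or day-7 TAC replicate 1 or 3 (-1.62 to -1.27, adjusted p 0.0510 to 0.0736). Of its relatives, Hif1a rose with day-1 TAC by 0.38 (SE 0.12, adjusted p = 0.0326) and Epas1 fell by 0.59 (SE 0.10, adjusted p = 0.00221). Ppargc1a fell by 1.02 (SE 0.14, adjusted p = 0.000748) with day-1 TAC and was called higher with day-7 TAC (0.67 to 0.89 over the alternatives). Tbc1d4, whose product holds GLUT4 inside the cell until insulin acts, fell by 0.75 with day-1 TAC and by 1.07 with day-7 TAC. Its relative Tbc1d1 rose by 0.56 and 0.81, and Mlxipl, the carbohydrate response factor gene, by 0.68 and 0.95. Mef2a fell by 0.58 with day-1 TAC.

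Other glycolysis and gluconeogenesis genes rose in 5 and fell in 3 of 15 with day-1 TAC, and rose in 4 and fell in 3 with day-7 TAC. Other pyruvate and lactate genes rose in 3 and fell in 3 of 17 with day-1 TAC, and rose in 3 and fell in 4 with day-7 TAC. Of 19 other glycogen genes, 2 rose and 6 fell in each TAC group. Ppp1r3a, which tethers a phosphatase to muscle glycogen, fell by 1.00 with day-7 TAC (SE 0.15, limma adjusted p = 0.00123). Ppp1r3a differed between the TAC groups by 0.77 (SE 0.15, adjusted p = 0.00864). The glycerol phosphate and malate-aspartate shuttle genes, which pass cytosolic reducing power to the mitochondrion, fell in 8 and rose in 1 of 10 with day-7 TAC, and fell in 4 with day-1 TAC, with Mdh2 at -0.52 and Gpd1 at -0.56 against sham with day-7 TAC and Gpd1l at -0.55 with day-1 TAC. Pentose phosphate and hexosamine genes rose in 3 and fell in 2 of 13 with day-1 TAC, where G6pdx, the entry enzyme gene of the pentose branch, rose by 0.72 (SE 0.10, adjusted p = 0.000626), and rose in 2 and fell in 1 with day-7 TAC.

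**Figure D5:**
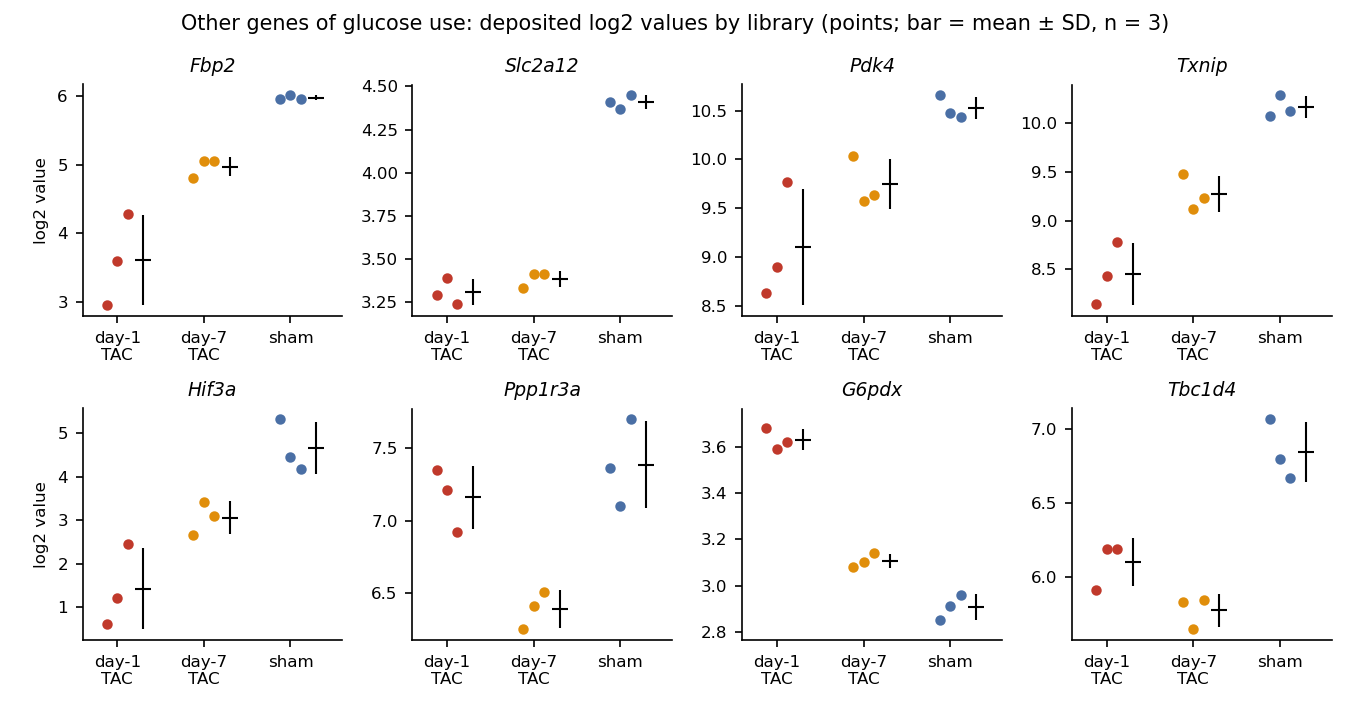
Deposited log2 values by library (y axis, points; bar = mean ± SD, n = 3) of 8 further genes of glucose use, each with its own scale, for day-1 TAC, day-7 TAC and sham from left to right. Fbp2 and Txnip are lowest with day-1 TAC and highest in sham.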

How the data were processed

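Messenger RNA of 9 left ventricle libraries was sequenced in single-end runs of 50 cycles, per the labels' protocols. The submitters' processing notes name STAR, Trim Galore and edgeR with the build mm10. Versions, annotation and strand setting are not given in the sources used for this work. The authors deposited log2 values, named as TMM-scaled per the file headers, for 16710 rows. The 12 rows of 3 symbols that stand on several rows were left out. Taken out of the log, 100.0% of values were whole multiples of a step within 0.001 reads, with the lowest value of a library taken as 1 read, which is unsure where a pseudocount was added.

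Limma 3.58.1 in R 4.3.3 was fitted with an intensity trend to the log2 values of all 9 libraries for the 13712 genes above 0 in at least 3 libraries, two-sided, with Benjamini-Hochberg adjustment over all of them and calls at an adjusted p under 0.05. Log2 differences are of group means, with SE. Linear levels are 2 to the deposited log2 value, and per kb values divide by the exon length of GENCODE mouse release 21. The steps were tested on simulated data. The 40 genes, the lists and markers were chosen with earlier results of these data known. Values in every library are given for genes called with a log2 difference of at least 0.5 in size. Genes of the pathway outside the 40 were named, from those called with such a difference, among the 4 of smallest p per list and comparison, with exceptions in both ways. Some that the rule gives are only counted. Hif1a, Epas1, Phkg2 and Phkb are named outside the rule. Some genes are given for a comparison outside it, such as Pdk4 with day-7 TAC. Alternatives were other filters, a pseudocount, scalings, variance models, fits to the groups compared, a block and leaving out each library. In the header 2 sham columns carry the same name, so sham replicates 2 and 3 are numbered by column order. Same-numbered TAC libraries deviated with correlations of -0.224, -0.110 and -0.036, against -0.167 to 0.228 for other numbers. These values show no sign of pairing by number, but groups of 3 are too small to exclude it. No library was a copy of another of its group (chi-square per gene 8.70 to 25.6).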

Additional observations from a re-analysis of the deposited data

Results flagged for a closer look

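In 16 of the 38 genes the change against sham differed between the TAC groups, by limma's direct test of day-1 against day-7 TAC (log2 difference, adjusted p under 0.05), where 16.7% of all genes tested did. Day-1 TAC was higher in Slc16a3 (1.15), Pfkl (0.75), Pgam2 (0.49), Ldha (0.47), Pkm (0.45), Eno3 (0.44), Slc2a4 (0.36), Aldoa (0.35), Hk2 (0.34), Pygm (0.32) and Pdhb (0.27). It was lower in Pdk1 (-1.10), Phka1 (-0.73), Slc16a1 (-0.62), Pgam1 (-0.43) and Gbe1 (-0.25). For Slc2a4, Hk2, Aldoa and Eno3 neither TAC group was called against sham. Groups of 3 libraries are too small for a check on single samples that stand apart.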

How the results depend on the processing

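Calls on the 38 genes held under every alternative in 12 of 19 with day-1 TAC against sham, 15 of 20 with day-7 TAC against sham and 7 of 16 between the TAC groups, and 0 called differences changed sign. Genes lower with day-1 TAC against sham (8) numbered 5 under upper-quartile scaling, quantile normalization, voom and a fit to only these 2 groups. Between the TAC groups, genes lower (5) numbered 3 under upper-quartile scaling, and without an intensity trend genes higher numbered 7 of the 38 and 9 of the other pathway genes. Another scaling moved the median of all genes by at most 0.10 (voom, day-1 TAC against sham). With a pseudocount of 1 the day-1 TAC difference in the ratio of Slc16a1 to Slc16a3 was -1.53, and the day-7 TAC differences of Pfkfb2 to Pfkfb1 and Pgam2 to Pgam1 were 0.53 and -0.90, beside -2.31, 0.72 and -1.03. No sign was found that the replicate numbers pair the TAC libraries. With these numbers as a replicate block, 1167 of all genes (2287 without), 7 of the 38 higher and 3 lower, and 7 other pathway genes higher were called. No paired analysis was possible against sham because 2 sham columns carry no number of their own.

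Leaving out each library gave these ranges. With day-1 TAC against sham, 3259 to 4525 of all genes were called, 9 to 13 of the 38 higher and 5 to 8 lower, and 10 to 16 of the other pathway genes higher and 25 to 30 lower. With day-7 TAC these were 2594 to 4404, 8 to 11 and 8 to 10, and 8 to 17 and 22 to 31. Between the TAC groups they were 1261 to 2491, 5 to 11 and 3 to 6, and 7 to 15 and 6 to 12. The F test called 25 to 28 of the 38. Genes lower with day-1 TAC against sham numbered 5 without sham replicate 1 or 2 or day-1 TAC replicate 1, and the day-7 TAC count over all genes was 2594 without day-7 TAC replicate 2. Between the TAC groups, the count over all genes was 1261 to 1300 without any day-7 TAC library, and that of genes lower was 3 without any of these or day-1 TAC replicate 2 or 3. A group left with 2 libraries shares the spread of all groups in the fit. The cause of these shifts was not tested. Genes of few reads, such as Slc16a3 in sham, are the least precise.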
